A study of Mus musculus with 8 samples.

Results

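Windows away from promoters with few measured cytosines and a low methylation level were examined in RRBS data of type A spermatogonia. The autosomes were cut into fixed windows of 1 kb, and a window was taken when it held 3 to 8 measured cytosines, when its centre lay more than 5 kb from any RefSeq transcription start site (TSS) on mm10, and when its mean methylation level over all 8 samples was at most 20%. This rule found 3468 windows, out of 87132 windows that met the first conditions at any level and 193113 autosomal windows with at least 3 cytosines. The windows were chosen by their level, so the low level itself is no finding. The level ran from 0% to 19.99% with a median of 12.7%. The members nearest the threshold, by Nog, Gm22936 and Ppargc1b, stood at 19.99%, 19.99% and 19.98%, and the first windows left out, by Mir6344, Gm52534 and Rgs9, stood at 20.003%, 20.004% and 20.005%. A total of 1137 members were at 10% or below, and most members thus carried some methylation. The rule counts measured cytosines and not CpGs, and members held 2 to 111 CpGs per kb with a median of 15.

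The cells came from F1 male C3H/HeN mice at postnatal day 6, whose dams drank tap water (control group) or water with 85 ppm sodium arsenite (arsenic group) from gestational day 8 to 18. They were taken from testes with an antibody to CD49f (Itga6) and magnetic beads, and each of the 4 control and 4 arsenic samples was a pool of 8 testes from 4 mice. RRBS cuts DNA at CCGG with MspI before bisulfite conversion, so that unconverted C marks methylation. The deposited table gives the number of reads with C and with T for every cytosine, with each strand kept apart. Every cytosine in it had at least 10 reads in every sample.

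The coverage summed over all cytosines was 96428439 to 133406260 per sample, where a read counts once for each cytosine it covers, and the median coverage of a member's cytosine was 32 to 46 reads. The paper reports higher Itga6 and Gfra1 mRNA in this fraction than in its prospermatogonia fraction. It also reports that the samples clustered by developmental stage in a principal component analysis of methylation. Promoters that mark the cell type went against the label. Promoters of germline genes such as Dazl and Ddx4, which are known to be unmethylated in male germ cells, averaged 81.4% to 85.7% (control) and 79.3% to 84.7% (arsenic) per sample over the 10 of 12 listed genes that were covered, and each gene was at 60.7% (Tdrd1) or more. Promoters listed as maternally imprinted averaged 49.1% to 51.8% (control) and 44.8% to 52.5% (arsenic) over 11 of 14 genes. Maternally imprinted promoters are known to lack methylation in male germ cells at this age. Zim1, listed though it is not maternally imprinted, was the lowest of both lists at 1.68%. This was near the 1.56% mean of CpG-dense windows at promoters with a level of at most 5%. Peg12 stood at 20.3%, and each other covered imprinted promoter at 46.8% (Inpp5f) or more. The cells are therefore called by their label only, and the part that other cells of the testis have in the values below was not tested.

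In mammalian genomes CpGs outside CpG islands are mostly methylated, and low levels away from promoters are known at enhancers and other distal regulatory elements where proteins bind the DNA. Enhancers lie mainly in introns and between genes and often act on a gene that is not the nearest one. CTCF, a zinc finger protein that holds chromatin loops, is known for binding at sites whose surroundings carry little methylation. A nearest gene is given below only as a position.

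The sequences of 5 windows are shown because they combined a very low level with highly methylated surroundings. They are among the 6 members with at least 5 cytosines whose level lay farthest below that of the cytosines within 5 kb on both sides (the flanks). Capitals mark CpGs with a measured cytosine, and the sequences are those of GRCm38 (mm10) in RefSeq. None overlaps an annotated exon.
Gm35315, chr5:110058042-110058266, plus strand: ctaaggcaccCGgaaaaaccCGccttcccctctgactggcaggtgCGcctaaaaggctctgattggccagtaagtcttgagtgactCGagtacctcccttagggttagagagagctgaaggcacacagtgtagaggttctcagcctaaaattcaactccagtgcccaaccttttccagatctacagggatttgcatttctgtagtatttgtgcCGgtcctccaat
4930474N05Rik, chr14:36049051-36049323, plus strand: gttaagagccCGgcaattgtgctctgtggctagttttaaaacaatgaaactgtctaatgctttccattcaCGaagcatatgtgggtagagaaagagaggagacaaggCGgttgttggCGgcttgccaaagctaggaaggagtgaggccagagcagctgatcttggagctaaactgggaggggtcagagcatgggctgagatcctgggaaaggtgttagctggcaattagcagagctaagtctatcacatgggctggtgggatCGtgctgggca
Wee1, chr7:110164344-110164569, plus strand: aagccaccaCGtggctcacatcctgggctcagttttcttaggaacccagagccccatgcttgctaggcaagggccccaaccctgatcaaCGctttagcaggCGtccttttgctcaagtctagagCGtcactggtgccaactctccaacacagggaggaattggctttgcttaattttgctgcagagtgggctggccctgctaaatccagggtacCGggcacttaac
Pif1, chr9:65599005-65599304, plus strand: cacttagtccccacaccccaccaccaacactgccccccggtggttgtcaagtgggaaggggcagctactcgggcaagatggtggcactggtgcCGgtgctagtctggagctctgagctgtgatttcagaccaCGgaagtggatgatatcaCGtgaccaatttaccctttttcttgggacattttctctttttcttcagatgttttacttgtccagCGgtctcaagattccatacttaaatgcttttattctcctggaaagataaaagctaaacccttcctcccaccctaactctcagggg
Wls, chr3:159782182-159782470, plus strand: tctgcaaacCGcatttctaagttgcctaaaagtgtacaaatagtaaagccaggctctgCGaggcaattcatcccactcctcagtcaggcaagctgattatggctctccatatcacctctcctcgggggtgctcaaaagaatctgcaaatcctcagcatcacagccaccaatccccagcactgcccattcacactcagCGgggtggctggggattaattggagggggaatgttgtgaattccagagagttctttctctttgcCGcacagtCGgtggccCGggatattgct

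The window by Gm35315 stood at 1.06% over 8 cytosines and its flanks at 88.6% over 28 cytosines. It was between 0% and 1.69% in the control samples and between 0% and 2.46% in the arsenic samples, so the groups overlapped. The window 42442 bases from the TSS of Wee1, which encodes a kinase that holds back entry into mitosis, stood at 1.66% against 87.9% in 43 flanking cytosines. It held a CpG-island-like stretch and a match to the CTCF motif starting at position 110164304, just before the printed stretch. The window 12327 bases from Pif1, the gene of a DNA helicase, stood at 3.499% against 89.4%. The window 57149 bases from Wls, whose product carries Wnt ligands to the cell surface, stood at 3.82% against 89.5%. The window by 4930474N05Rik, 1059 bases from a GENCODE start, stood at 5.06% against 92.1%. In all 5 windows the ranges of the control and arsenic samples overlapped. The flanks hold other cytosines than the windows, but the windows were ranked on this difference, so it is a description.

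**Figure D1:**
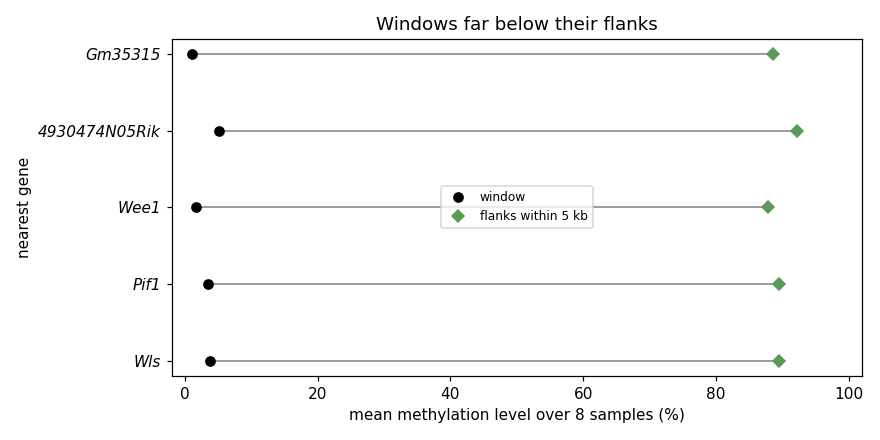
Mean methylation level over 8 samples, in percent, of 5 members far below their flanks (circles) and of the cytosines within 5 kb on both sides (diamonds), by nearest gene. The windows sit between 1.06% and 5.06% and their flanks between 87.9% and 92.1%.

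Most members were not such isolated dips. The flanks could be read, with at least 5 cytosines, at 2450 members and 48780 other distal windows. Their median level was 57.6% at members and 79.1% at the other windows. Flanks of at least 60% were found at 46.8% of these members against 80.4% of the other windows, and flanks of at most 20% at 15.3% against 2.73%. Placement was called enhancer-like when the centre was intronic or intergenic, no island-like stretch (200 bases with at least 50% GC and an observed to expected CpG ratio of at least 0.6) lay in the window, and the flanks were at 60% or more. By this definition 855 members qualified, which is 34.9% of those with readable flanks against 63.8% of the other windows. Enhancer-like placement was thus less frequent among members than among the other distal windows. The definition does not ask for a low level of the window itself, while the members were chosen by a low level. The contrast is therefore a description and no finding about enhancers. No chromatin data were used, and the placement says nothing about activity.

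By location the members resembled the other distal windows. Of the members 47.4% were centred in introns, 46.3% between genes and 6.31% in exons, against 47.7%, 46.7% and 5.57% of the others. The members lay closer to genes, with a median distance of 17584 bases from the nearest TSS against 23961. A TSS lay 5 to 10 kb away at 26.8% of members and 19.2% of other windows, and more than 100 kb away at 5.02% and 12.7%. The distance depends on the annotation, since 20.4% of members had a GENCODE start within 5 kb and 7.50% within 1 kb, against 18.8% and 5.46% of the others. By RefSeq starts the member farthest from a start site was an intergenic window on chromosome 7 with Gm30774 as its nearest gene, 935841 bases away, at 16.6%. It was followed by windows by Gm35191 (753873 bases, 12.4%) and Gm52093 (673022 bases, in an intron of the glypican gene Gpc5, 18.2%). This order holds for RefSeq starts only, since a GENCODE start lay 5505 bases from the first of these windows, 333572 bases from the second and 336223 bases from the third. Groups overlapped at all 3.

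In sequence the members were somewhat richer in GC and CpG. Median GC content was 48.2% against 45.7%, and the other windows held a median of 12 CpGs per kb. An island-like stretch was present in 23.5% of members and 13.0% of the other windows. Repeats were scarcer, with a median soft-masked share of 14.9% against 22.8%, and at least half-masked windows (50% or more) made up 4.15% of members and 22.2% of the others. Every cytosine was at 20% or below in 1978 members (57.04%), and some cytosine was above 20% in the other 1490. The threshold on the mean limits this spread, so it is given as a description.

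No member matched the mitochondrial genome in a search of all 3468.

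Motifs of 11 DNA-binding proteins or families were searched on both strands of each window. The CTCF motif was found in 114 members (3.29%) and 0.694% of the other distal windows, and in 0.798% of all distal windows. Of all windows with the motif, 16.4% were members. The NR5A motif TCAAGGTCA, bound by nuclear receptors of the steroidogenic factor family, was found in 182 members (5.25%) against 2.33% (2.45% of all). The GC box GGGCGG, bound by Sp/KLF factors, was found in 28.9% against 14.6% (15.2% of all), and the GATA motif AGATAA in 47.6% against 42.1% (42.3% of all). The E-box CACGTG stood at 15.5% against 12.3% (12.5% of all). Shares were close for AP-1 (TGANTCA, 25.8% and 25.4%, 25.4% of all), for the forkhead motif TGTTTAC (13.4% and 12.6%, 12.7% of all) and for ETS (CCGGAAG, which holds the MspI site, 10.4% and 10.01%, 10.03% of all). REST was found in 24 members (0.692% against 0.369%, 0.382% of all), CRE (TGACGTCA) in 28 (0.807% against 0.674%, 0.679% of all) and NRF1 in 8 (0.231% against 0.140%, 0.143% of all). No spelled motif holds another of them whole.

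Because GC content differed, the shares were also read in windows of 45% to 50% GC (1300 members and 30632 others). There the CTCF motif stood at 3.23% against 0.770%, NR5A at 6.15% against 2.77%, the GC box at 25.5% against 15.5% and GATA at 49.1% against 39.6%. REST stood at 0.538% against 0.451% and the E-box at 16.4% against 13.6%. The order was reversed for CRE (0.615% against 0.842%) and AP-1 (25.4% against 25.8%). The share of windows with a CTCF motif fell step by step with the level, from 3.29% at 0 to 20% through 1.81%, 0.996% and 0.751% to 0.508% at 80 to 100%. NR5A was as frequent at 20 to 40% (5.18%) as in the members, and 1.76% at 80 to 100%. A match is a stretch of letters and not a measured binding site.

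The level was then read by distance from the motif over the other distal windows, with the members left out. Within 50 bases of a CTCF match the cytosines averaged 49.02% (196 cytosines, 47.9% to 50.6% over the 8 samples), at 100 to 200 bases 63.9% and at 500 to 1000 bases 74.6%. Around NR5A matches the level rose from 47.4% within 50 bases (717 cytosines) to 76.2% at 500 to 1000 bases, and around GATA matches from 66.4% to 77.8%. Around REST matches it was 65.3% and 76.3%, and around AP-1 matches 75.3% and 77.1%. Around ETS matches, which hold the MspI site, it was higher within 50 bases (79.5%) than at 500 to 1000 bases (76.7%). With the members included, the level within 50 bases was 30.5% for CTCF (350 cytosines) and 41.5% for NR5A (861 cytosines), values that the threshold on the members lowers.

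**Figure D2:**
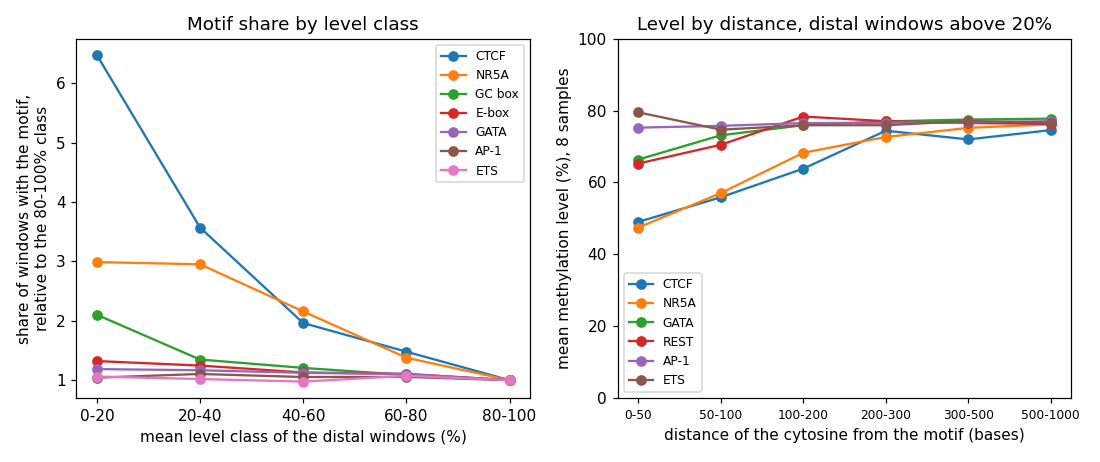
Left, share of distal windows with a motif in 5 classes of mean methylation level (%), relative to the class at 80 to 100%. Right, mean methylation level (%) over 8 samples of cytosines by their distance in bases from a motif match, over distal windows above 20%. CTCF and NR5A have their highest shares in the lowest class, and the level near their matches is 49.02% and 47.4%, against 75.3% near AP-1 matches.

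A pair of members with a CTCF match is shown with the match in capitals, to place the motif in its surroundings. They have enhancer-like placement and the lowest levels among such members with at least 5 cytosines and 10 flanking ones, and they were picked after their values were seen.
Pim1, chr17:29514571-29514795, plus strand: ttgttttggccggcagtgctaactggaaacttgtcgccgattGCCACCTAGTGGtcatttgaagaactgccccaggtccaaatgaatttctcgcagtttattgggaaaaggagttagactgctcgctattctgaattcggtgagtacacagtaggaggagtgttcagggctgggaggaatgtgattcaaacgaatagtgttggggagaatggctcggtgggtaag
Gm33781, chr10:82909445-82909671, plus strand: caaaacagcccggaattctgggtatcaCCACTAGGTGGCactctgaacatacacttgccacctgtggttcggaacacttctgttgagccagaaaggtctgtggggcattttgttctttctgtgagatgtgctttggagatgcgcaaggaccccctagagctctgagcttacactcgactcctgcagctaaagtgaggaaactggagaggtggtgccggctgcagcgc
The window 21416 bases from Pim1, the gene of a serine/threonine kinase, averaged 3.25% with flanks at 70.7%. It read 0.450%, 3.68%, 2.59% and 4.76% in the control samples and 1.10%, 7.29%, 3.01% and 3.11% in the arsenic samples, and the groups overlapped. The window by Gm33781 averaged 4.47% with flanks at 63.5%. It read 5.21%, 4.22%, 11.1% and 3.75% in the control samples and 2.82%, 4.74%, 3.11% and 0.806% in the arsenic samples, which again overlapped.

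The members had 2859 different nearest genes, 2383 of them nearest to 1 member only. The nearest gene was protein-coding for 1816 members (52.4%) and a lncRNA for 1424 (41.1%). Members seldom adjoined. There were 3089 single windows, 182 pairs and 5 runs of 3. The run of 3 with the lowest mean level lay by Gm36897 on chromosome 6, at 9.85%, 9.94% and 3.00%. The next lay by Gm34921 on chromosome 10, at 9.77%, 11.4% and 5.93%. In each window of these runs the groups overlapped.

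Genes nearest to 5 or more members were picked after their counts were seen, and 5 of them are given. Trim8, which encodes a ubiquitin ligase, had 7 members spread from 46454001 to 46530000 on chromosome 19, at 6.33% to 17.6%. Dlk1, the imprinted gene of a Notch-like ligand, had 5 on chromosome 12 at 1.56% to 18.1%, the closest 5984 bases and the farthest 63984 bases from the TSS. Nav2 (a neuron navigator protein), Zbtb20 (a zinc finger repressor) and Gm36156 had 5 each. The mean over these windows was 10.7% in the control group and 8.67% in the arsenic group for Dlk1, 13.0% and 12.2% for Trim8, and 12.9% and 14.3% for Zbtb20.

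Of all distal windows 3.98% were members, and gene lists were set against that share. Among distal windows nearest to developmental transcription factor genes 8.99% were members (40 windows at 23 of the 52 genes with a distal window). The lowest lay by Nfia (0.390%, in an exon), Irx5 (0.634%) and Zfhx4 (0.683%). Sertoli cell genes had 6 members (8.57%), by Dmrt1, Gata4, Inhbb, Sox8 and Sox9. One lay 18117 bases from Dmrt1, a testis-determining transcription factor gene also on the germline list, at 1.39%. The window by Inhbb, an inhibin subunit gene, was at 2.29%, a mean that rests on control sample 3 (11.7%) and is 0.944% without it (0% to 2.05% in the other 7 samples). The window by Sox8 was at 6.73%. Leydig, peritubular and other somatic cell genes had 4 (6.78%), by Star (cholesterol import for steroid synthesis, 12.7%), Csf1r (a macrophage receptor, 15.2%) and Pecam1 (an endothelial adhesion protein, 17.1%). Cytoskeleton, adhesion and signalling genes had 12 (6.49%), the lowest by Itgb5 (7.34%), Bmp4 (9.99%) and Tead1 (10.99%). Spermatogonial and germline genes had 2 (1.59%), by Dmrt1 and by Zbtb16 (PLZF, a factor of undifferentiated spermatogonia, 17.9%). These lists hold few windows, and no test was made of their shares.

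The groups were compared to ask whether gestational arsenic exposure altered these windows. The mean level over the 3468 members was 13.0%, 13.3%, 11.9% and 11.7% in control samples 1 to 4 and 11.5%, 11.1%, 10.9% and 11.1% in arsenic samples 1 to 4. Every arsenic sample was below every control sample. The group means were 12.5% ± 0.789 and 11.1% ± 0.234 (SD, n = 4 each), a difference of -1.33 points. Over all distal windows the difference was -0.46 points (74.8% ± 0.0977 and 74.3% ± 0.183). There too the groups did not overlap. The difference was negative for members on each of 19 chromosomes, from -1.86 to -0.84 points, and the groups did not overlap on 12 of them. The chromosomes were read in the same samples, so they are not independent. Values by chromosome over all distal windows are not given.

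Control samples 1 and 2 stood above the other 6 samples, and the size of the difference rests partly on them. Without both, the difference was -0.66 points. Leaving them out could not bring overlap, since the groups did not overlap with all samples kept. Values at other cytosines of low level are given for comparison. Mitochondrial cytosines averaged 1.39% ± 0.0833 in the control group and 1.21% ± 0.0968 in the arsenic group. CpG-dense windows at promoters with a level of at most 5% averaged 1.605% ± 0.0755 and 1.51% ± 0.159. The differences were -0.18 and -0.09 points. The paper gives the bisulfite conversion rate only as a range, wider than the difference over the members and not split by group. The part of incomplete conversion in the difference over the members was not tested. Members at 0 to 5% averaged 2.71% and 2.53%, a difference of -0.19 points that is close to that of mitochondrial cytosines.

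**Figure D3:**
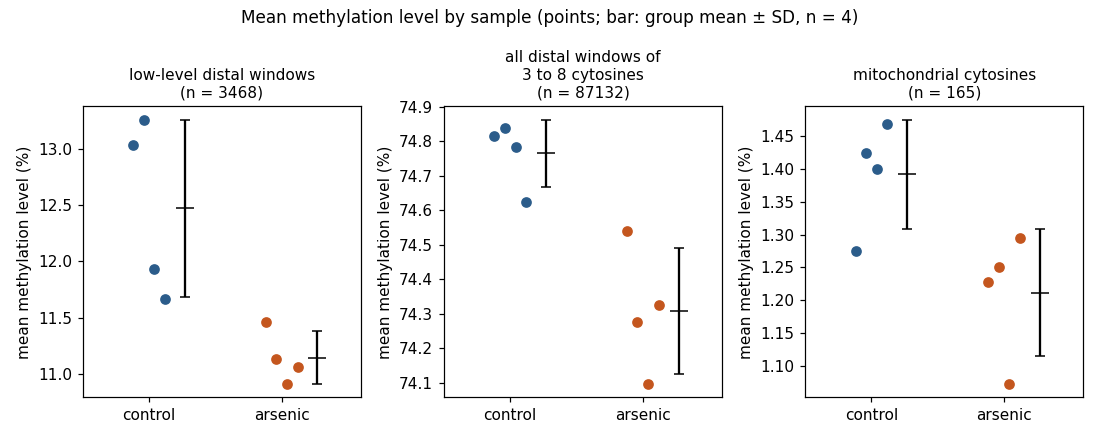
Mean methylation level (%) in each sample over the member windows (low-level distal windows), over all distal windows of 3 to 8 cytosines and over mitochondrial cytosines, with the group mean ± SD (n = 4). The 4 arsenic samples lie below the 4 control samples in the first 2 panels, and the groups overlap in mitochondrial cytosines. The vertical axes do not start at 0.

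The difference grew with the level inside the members. It was -0.19 points in members at 0 to 5% (527 windows), -0.90 at 5 to 10% (610), -1.52 at 10 to 15% (1209) and -1.89 at 15 to 20% (1122). In distal windows above the threshold it was -1.34 points at 20 to 40% and fell in size to -0.22 points at 80 to 100%. In all 4 classes of members, and likewise in each class above the threshold, every arsenic sample was below every control sample. In members at 0 to 5% the nearest samples were both at 2.60%. In the 1978 members with every cytosine at 20% or below the means were 9.30% ± 0.800 and 8.17% ± 0.223, and the groups overlapped (lowest control sample 8.48%, highest arsenic sample 8.496%). Intronic members differed by -1.63 points (13.5% and 11.8%), intergenic members by -1.06 (11.6% and 10.5%) and exonic members by -1.08 (11.4% and 10.3%), where the groups overlapped. Members with enhancer-like placement differed by -1.49 points (13.9% ± 0.926 and 12.4% ± 0.325) and the other members by -1.28. Members with an NR5A match differed by -2.05 points (13.8% ± 1.19 and 11.7% ± 0.142). Members with a CTCF match differed by -0.83 points (10.7% ± 0.574 and 9.90% ± 0.648) with overlapping groups. These subsets differ in their levels, and the differences between subsets were not tested.

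**Figure D4:**
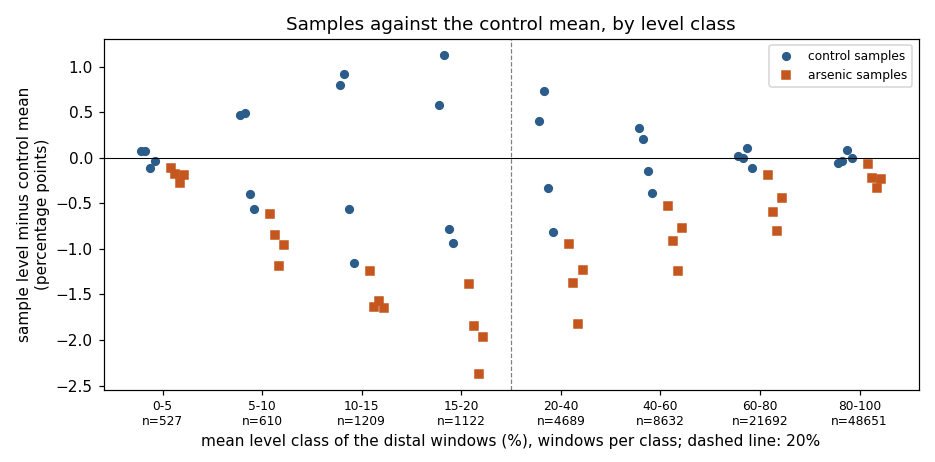
Mean level of each sample minus the control mean, in percentage points, in classes of distal windows by mean level (%). Circles are control samples and squares arsenic samples. Classes left of the dashed line are members, where the distance between the groups widens from -0.19 to -1.89 points.

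No single window passed the test. Logistic regression on summed counts with overdispersion scaling called 0 members at a q of at most 0.01 and a difference of at least 10 points, as it called 0% of all 193113 windows. The lowest q among members was 0.977 (Benjamini-Hochberg). An unadjusted p under 0.05 was found at 218 members (6.29%), 188 lower and 30 higher in the arsenic group, against 4.51% of all windows (5859 lower and 2853 higher). Calls in the lower direction were thus also the more frequent over all windows. limma and the model with a replicate block also called 0. Without overdispersion scaling 62 members were called (1.79%, 49 lower), against 0.457% of all windows (882, 614 lower). The median dispersion was 3.23 times that of binomial counts in members, 2.12 times in all distal windows and 2.47 times in all windows. This holds spread between samples, reads that cover several cytosines and any double counting of reads together, which were not told apart.

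By direction, every arsenic sample was below every control sample in 108 members (3.11%), against 2.07% of all windows, and above in 16 members (0.461%), against 1.06% of all windows. The median member differed by -1.01 points and the median window by -0.29 points. A level lower in the arsenic group was found at 64.4% of members and 56.1% of all windows. Without control samples 1 and 2 the shares without overlap were 8.97% lower and 4.99% higher in members, against 8.49% and 5.50% of all windows. The excess of lower members over the background thus became small without these samples.

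Single cytosines were tested by logistic regression, the test that the study's methods name, here run without overdispersion. Of the 17717 cytosines in members, 106 (0.598%) were hypoDMCs and 21 (0.119%) hyperDMCs, in 109 windows. Among all 2130064 cytosines 0.323% were hypoDMCs and 0.228% hyperDMCs, and among those at 20% or below 0.191% and 0.0813%. Without control samples 1 and 2 the members held 91 hypoDMCs (0.514%) and 33 hyperDMCs (0.186%), against 0.378% and 0.251% of all cytosines. With overdispersion and an F test, or with limma, 0 cytosines in members were called. The share over all cytosines under these tests is not given, so this is not read as particular to the members. Methylated counts of 1 to 10 at members' cytosines were even in 56.1% to 57.7% of cases per sample, so the counting error may exceed what the number of reads gives.

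Among the 124 members whose groups did not overlap, all shared the q of 0.977, and the rule for named windows then took those of the lowest level. The window by Mier3 read 0.694%, 0.463%, 1.58% and 0.538% in the control samples and 0% in each arsenic sample. It lay 167 bases from a GENCODE start. Windows by Gm31668 (1.78% and 0.646%) and by Fos, the AP-1 subunit gene (3.53% and 1.55%), were also lower in the arsenic group. Windows by Zfp395 (0.472% and 2.81%), by Mecom, the gene of a zinc finger transcription factor (1.14% and 3.22%), and by Gm31563 (2.67% and 9.65%, with a GENCODE start 1668 bases away) were higher. None of these 6 passed the test, and the coverage summed over the cytosines of a window was 35 to 590 per sample.

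Larger differences were singled out after the values were seen, namely the 4 lower and 4 higher members with the lowest unadjusted p among those without overlap, and the members with at least 3 hypoDMCs. None had a q under 0.977. The window in an intron of Fat1, an atypical cadherin gene, read 31.4%, 16.2%, 32.4% and 16.3% in the control samples and 6.48%, 9.58%, 2.81% and 5.71% in the arsenic samples. Its 4 cytosines were all hypoDMCs, and the difference of -17.97 points was the largest decrease among members without overlap. Control samples 1 and 3 stood well above the other control samples. The window 15886 bases from Tincr read 16.7%, 9.05%, 18.7% and 10.2% and then 0.368%, 0.379%, 2.04% and 5.34%, with 4 of 8 cytosines called as hypoDMCs. These sequences are shown because they held the most hypoDMCs of any member, with measured CpGs in capitals.
Fat1, chr8:44991823-44991943, plus strand: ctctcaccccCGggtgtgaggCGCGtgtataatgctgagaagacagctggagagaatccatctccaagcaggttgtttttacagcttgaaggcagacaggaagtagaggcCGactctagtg
Tincr, chr17:56538110-56538249, plus strand: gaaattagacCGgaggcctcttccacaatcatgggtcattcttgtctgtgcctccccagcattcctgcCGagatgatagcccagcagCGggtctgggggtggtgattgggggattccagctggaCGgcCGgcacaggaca
Atl2, chr17:79919875-79920000, plus strand: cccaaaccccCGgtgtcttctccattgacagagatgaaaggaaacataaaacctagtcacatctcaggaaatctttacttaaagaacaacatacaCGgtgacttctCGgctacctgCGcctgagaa

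The window nearest to Atl2, an atlastin gene of the endoplasmic reticulum, held 3 hypoDMCs. It read 16.5%, 20.8%, 13.5% and 17.2% in the control samples and 5.48%, 9.42%, 6.48% and 8.58% in the arsenic samples (-9.51 points). The window in an intron of Htra1, a secreted serine protease gene, read 17.4%, 17.8%, 24.6% and 21.2% against 9.34%, 8.70%, 3.65% and 8.82% (-12.62 points). It had enhancer-like placement with flanks at 63.2%. The windows by Mir466j (23.3% ± 4.04 and 12.6% ± 2.69) and Gm41556 (24.1% ± 2.88 and 15.8% ± 2.29) were lower as well. The latter had a GENCODE start 1757 bases away.

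In the other direction, the window in an intron of Prkab2, which encodes a subunit of AMP-activated kinase, read 11.6%, 7.26%, 10.2% and 9.76% in the control samples and 15.7%, 16.6%, 19.6% and 16.5% in the arsenic samples. Its flanks stood at 91.9%, and a GENCODE start lay 161 bases away. The window in an intron of Amotl1, an angiomotin family gene, went from 8.59% ± 2.40 to 18.9% ± 3.96 with flanks at 78.6%. Windows by Aldh4a1, a gene of proline breakdown (8.01% ± 1.97 and 16.5% ± 2.40), and by Enoph1, a gene of methionine salvage (7.55% ± 2.07 and 18.9% ± 6.93), were higher too. The one by Aldh4a1 lay 685 bases from a GENCODE start. Among the listed genes, the window by Zbtb16 read 24.7%, 21.7%, 18.4% and 17.0% in the control samples and 13.6%, 16.6%, 16.5% and 14.6% in the arsenic samples, without overlap. The window by Star read 17.9%, 17.6%, 13.2% and 12.5% against 7.19%, 14.98%, 11.02% and 7.40%, and overlapped. These windows of listed genes were picked after their values were seen. Other windows named by gene list overlapped and were lower (such as Csf1r, 16.2% and 14.2%), nearly level (Dmrt1, 1.39% and 1.38%) or higher (such as Itgb5, 6.71% and 7.97%).

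**Figure D5:**
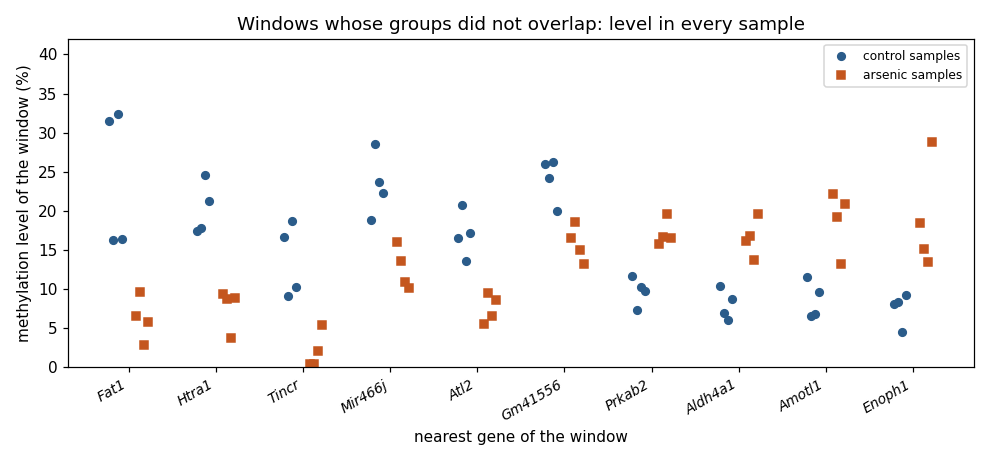
Methylation level (%) in every sample of the members singled out for their group difference, by nearest gene, ordered by the difference. Circles are control samples and squares arsenic samples. The groups do not overlap in any window shown, and none passed the test over all windows.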

How the data were processed

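RRBS was done on type A spermatogonia of 4 control and 4 arsenic samples. Reads were trimmed by the authors with Trim Galore 0.6.5, mapped to mm10 with Bismark 0.22.3 and joined the samples with methylKit 1.22.0 (versions from the submitters' processing notes). The deposited table holds raw counts of C and T reads per cytosine with a lowest coverage of 10. Columns were assigned to samples by their labels. Intervals between pools measure the spread of these pools, and at a coverage of about 40 reads a single cytosine is imprecise.

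Window levels are unweighted means over cytosines. Start sites, exons and sequence came from RefSeq on GRCm38.p6 (mm10), where 99.98% of cytosines preceded a G. Windows were tested by logistic regression with overdispersion of at least 1 and an F test, cytosines without overdispersion, with Benjamini-Hochberg adjustment over all windows or cytosines. The tests were tried on simulated data, and the outcome is not given here. Python 3.11.15, scipy 1.17.1, limma 3.58.1 in R 4.3.3 and blastn 2.17.0 were used. Members, gene lists and motifs were chosen with earlier results of these data known. Named windows are the 3 lower and 3 higher without overlap of lowest q, the 3 farthest from a start site, the 3 longest runs, the 3 lowest per gene list, the 6 farthest below their flanks and the 3 on each side of the threshold, with ties going to the lowest level. A few of them are not reported here. Alternatives were curated transcripts, coverage of at least 20, weighted levels, summed strands, a shifted grid, the deepest 0.1% left out, a level of at most 10%, other tests and samples left out.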

Additional observations from a re-analysis of the deposited data

Results flagged for a closer look

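Among 100 groups of 4 samples, 8 held a sample far from the other 3, where chance gives about 5. Control sample 3 stood apart at 13.5% in the window at 99287001 on chromosome 10 by Gm34921 (the others 3.51% to 4.25%) and at 11.7% in the window by Inhbb (0% to 0.833%). Control sample 2 stood at 1.11% in the window by Irx5 (the others at 0%). Arsenic sample 2 stood at 7.81% in the same window by Gm34921 (4.58% to 5.10%) and at 13.0% in the window by Nog (19.36% to 19.98%). Arsenic sample 1 stood at 3.65% in the window by Dmrt1 (0.338% to 0.853%), and arsenic sample 4 at 0.571% in the window by Nfia (the others at 0%). Arsenic sample 3 stood at 3.65% in the window by Htra1 (8.70% to 9.34%).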

How the results depend on the processing

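The decrease over the members kept its direction, with no overlap of groups, under every alternative run. For the alternatives that leave out samples this was fixed beforehand, since the groups did not overlap with all samples kept. The decrease was -0.571 points over the 1137 windows at 10% or below. It ran from -1.60 (without control sample 4) to -1.07 (without control sample 2) when single samples were left out. With both of control samples 1 and 2 left out, an alternative chosen after seeing the data, it was -0.66. There 484 members did not overlap (8.97% lower and 4.99% higher, against 8.49% and 5.50% of all windows). Members without overlap numbered 80 (68 lower and 12 higher) at a coverage of at least 20, where fewer windows remained. The share of all windows at that coverage is not given. With 1 sample left out, 208 to 253 of the 3468 members did not overlap (164 to 214 lower, 37 to 55 higher). Over all windows 3.60% to 4.04% were then lower and 2.03% to 2.34% higher without overlap. The window test called 62 members without overdispersion and 0 under limma, at a coverage of at least 20, at a q of at most 0.05 and with any 1 sample left out. With a replicate block it called 0, and replicate numbers showed no pairing (correlations up to 0.00663). DMCs in members numbered 101 to 171 with 1 sample left out (76 to 139 hypoDMCs and 18 to 32 hyperDMCs). They numbered 0 with overdispersion or with limma. Shares over all cytosines are not given for these settings, so the counts are not set against a background. With coverage-weighted levels the difference kept its direction in 16 of 16 windows named for it. Leaving out 1 sample cannot reverse these differences, since the windows were chosen for groups that do not overlap. The median coverage summed over the cytosines of a member was 175.5 to 254.5 per sample, and no detection limit was worked out for a single window.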
